A study of Homo sapiens with 7 samples.

Results

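The genes described here are the human collagen chains, the laminin chains and fibronectin, the main fibrous and sheet-forming proteins of the extracellular matrix. They were taken by symbol as the protein-coding genes named COL, number, A, number, together with LAMA, LAMB and LAMC followed by a number, and FN1. That gave 57 genes (44 collagen chains, 12 laminin chains and FN1) among 60666 Ensembl gene identifiers, of which 19897 were protein-coding in GENCODE release 29. RNA was counted by sequencing in 7 libraries labelled as RPMI 8226, a line grown from a myeloma, the tumour of plasma cells, which secrete antibodies. The study compared 2 wild-type libraries (WT) with 2 from HDAC6 knockout cells (KO) and 3 from cells labelled RY. The label of RY gives the HDAC6 substitutions R1155A and Y1155A, both written for residue 1155, and the edited lines were made with CRISPR-Cas9. HDAC6 is a mainly cytoplasmic deacetylase whose zinc finger binds free ends of ubiquitin chains, and the comparisons ask how gene expression differs with its loss or with a changed zinc finger. All libraries share the labelled line and its culture medium. The labels name no added agent, and they do not say whether an edited line is 1 clone, nor whether replicates were separate cultures.

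Collagens are triple helices of 3 chains, and the chains of a type assemble inside the secretory pathway before export. Fibrillar collagens form cables, type IV collagen forms the network of basement membranes, and the remaining classes decorate fibrils, anchor epithelia or span the cell membrane. Laminins are built of an alpha, a beta and a gamma chain and are the other network of basement membranes, while fibronectin is a dimeric glycoprotein that integrins assemble into fibrils. Myeloma cells adhere to fibronectin, laminins and collagens of the bone marrow through integrins and syndecan-1.

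Levels are given in CPM, the counted reads of a gene scaled to a TMM-adjusted library of 1000000 reads. The libraries held 31368968 to 42813888 counted reads, and a level of 3 reads over a whole group came to 0.0393 CPM in WT, 0.0435 in KO and 0.0262 in RY. HDAC6 stood at 57.2 and 77.3 CPM in WT, at 19.0 and 12.8 in KO, and at 90.3, 110 and 96.4 in RY. It was lower in KO by 2.08 on the log2 scale (SE 0.21, adjusted p = 0.000229), and a transcript count cannot check the substitutions of RY. The libraries labelled RY stood apart from the others. Their log2 CPM correlated at 0.682 to 0.753 across genes with the WT and KO libraries, against 0.946 to 0.958 between WT and KO. They went against the plasma cell label: 12 plasma cell markers summed to 7951 to 9169 CPM in WT, 5122 to 5994 in KO and 367 to 402 in RY, and the plasma cell receptor gene TNFRSF17 had 0 reads in all 3. Conversely, 12 myeloid markers summed to 176 to 213 CPM in WT, 86.5 to 91.6 in KO and 1390 to 1539 in RY. Single genes led both RY sums, XBP1 at 327 CPM among the plasma cell markers and MPO at 980 CPM among the myeloid ones. XBP1 differed little between RY and WT (log2 fold change -0.64). The myeloid marker CD14 was lower in RY than in WT, at 0.194 against 0.722 CPM (log2 fold change -1.85, adjusted p = 0.00909). Over 210 genes at 20 CPM or more in RY and under 1% of that level in KO, the WT libraries held a median of 4.04% and 7.09% of the RY level. Whether RY differs through the edit or through being another population cannot be told apart here. Results for KO against WT are therefore also given from a fit without the RY libraries. That fit leaves the WT and KO reads as they are, so it cannot address the RY-rich transcripts in WT.

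Promoter windows, running from 250 bases before the start site to 50 bases after it, were found for 42 of the 57 genes in RefSeq (GRCh38.p14). Those of COL4A3 and COL4A4 are shown because these collagen IV genes lie head to head and both had 0 reads in RY. Their start sites, at positions 227164624 (plus strand) and 227164205 (minus strand) of chromosome 2, are 419 bases apart. The capitals mark the 82 bases that both windows contain, read on opposite strands.

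COL4A3, chr2:227164374-227164673, plus strand: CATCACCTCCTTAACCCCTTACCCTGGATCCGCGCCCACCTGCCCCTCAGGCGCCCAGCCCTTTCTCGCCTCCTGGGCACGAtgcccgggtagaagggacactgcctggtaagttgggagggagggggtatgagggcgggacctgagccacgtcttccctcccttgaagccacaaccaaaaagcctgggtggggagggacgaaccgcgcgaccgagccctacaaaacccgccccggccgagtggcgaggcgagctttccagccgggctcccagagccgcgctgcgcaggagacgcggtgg
COL4A4, chr2:227164156-227164455, minus strand: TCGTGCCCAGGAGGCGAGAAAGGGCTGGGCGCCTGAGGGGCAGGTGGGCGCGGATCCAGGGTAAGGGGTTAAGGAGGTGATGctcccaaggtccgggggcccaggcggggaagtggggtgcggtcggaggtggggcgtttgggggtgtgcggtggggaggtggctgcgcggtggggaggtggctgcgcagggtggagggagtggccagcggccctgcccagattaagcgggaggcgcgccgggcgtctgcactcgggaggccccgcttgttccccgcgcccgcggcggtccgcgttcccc

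The windows of FN1 and LAMA5 are shown because they are the most abundant fibronectin and laminin transcripts of WT and stood under 1 CPM in RY. Capitals mark exact matches on either strand to a GC box, spelled GGGCGG, to a CCAAT box, spelled CCAAT, or to a cyclic AMP response element, spelled TGACGTCA.

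FN1, chr2:215436019-215436318, minus strand: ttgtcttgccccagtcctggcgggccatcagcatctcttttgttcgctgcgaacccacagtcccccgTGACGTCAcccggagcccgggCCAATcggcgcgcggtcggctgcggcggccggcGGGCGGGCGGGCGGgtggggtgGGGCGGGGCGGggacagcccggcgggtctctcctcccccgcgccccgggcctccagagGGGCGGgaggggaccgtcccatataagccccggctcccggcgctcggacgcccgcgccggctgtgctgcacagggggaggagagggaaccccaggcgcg
LAMA5, chr20:62367263-62367562, minus strand: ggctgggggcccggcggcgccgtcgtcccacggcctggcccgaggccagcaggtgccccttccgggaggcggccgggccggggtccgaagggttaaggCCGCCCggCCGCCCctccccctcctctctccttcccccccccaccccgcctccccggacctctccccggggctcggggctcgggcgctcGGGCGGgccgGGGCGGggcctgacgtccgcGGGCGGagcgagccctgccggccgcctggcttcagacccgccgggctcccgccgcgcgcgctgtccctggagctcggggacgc

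Counting from the start site as +1, the FN1 window held TGACGTCA from -183 and CCAAT from -162. It also held 6 GC boxes, of which those from -129, -125 and -121 overlap, as do those from -107 and -102. The LAMA5 window held 5 GC boxes, from -152, -144, -63, -53 and -33. The COL4A3 window held 2, from -117 on the plus strand and -23 on the minus strand, and the COL4A4 window held 0. Of all 35116 RefSeq windows of 300 bases, 45% held a GC box on either strand, 34.6% a CCAAT box and 1.85% the cyclic AMP element. These are letter matches and say nothing of binding. The FN1 window contained 38 CpG dinucleotides, that of LAMA5 41, that of COL4A3 24 and that of COL4A4 29.

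Of the 57 genes, 30 passed the expression filter. The 27 that did not had at most 13 reads in a library, the highest group mean being 0.232 CPM for COL6A3 in KO. COL3A1, COL4A6, COL8A1, COL17A1, LAMA1 and LAMA4 had 0 reads in all 7 libraries. A mean of at least 1 CPM was reached by 20 genes in WT, 18 in KO and 13 in RY. Together the 57 genes took 0.369% and 0.398% of counted reads in WT, 0.0858% and 0.122% in KO, and 0.0151% to 0.0169% in RY. FN1 alone took 0.339% and 0.362% in WT.

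A gene was called when its adjusted p was under 0.05 and its fitted change at least 2-fold. In KO against WT, 11 of the 30 were called, 3 higher and 8 lower, beside 10.9% of all 18281 genes tested (3.3% higher and 7.64% lower). The median log2 fold change of the 30 was 0.02, and that of all genes was -0.009. In RY against WT, 24 were called, 9 higher and 15 lower, beside 49.1% of all genes (23.7% and 25.4%). The median was -1.05 for the 30 genes and -0.026 for all. In RY against KO, 23 were called, 10 higher and 13 lower, beside 50% of all genes (24% and 26%), with medians of -0.53 and -0.031. The comparisons with WT share the WT libraries and are not independent. The 30 genes passed the filter in part through the group in which they are high, so these counts describe them and are not a test of the family.

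**Figure D1:**
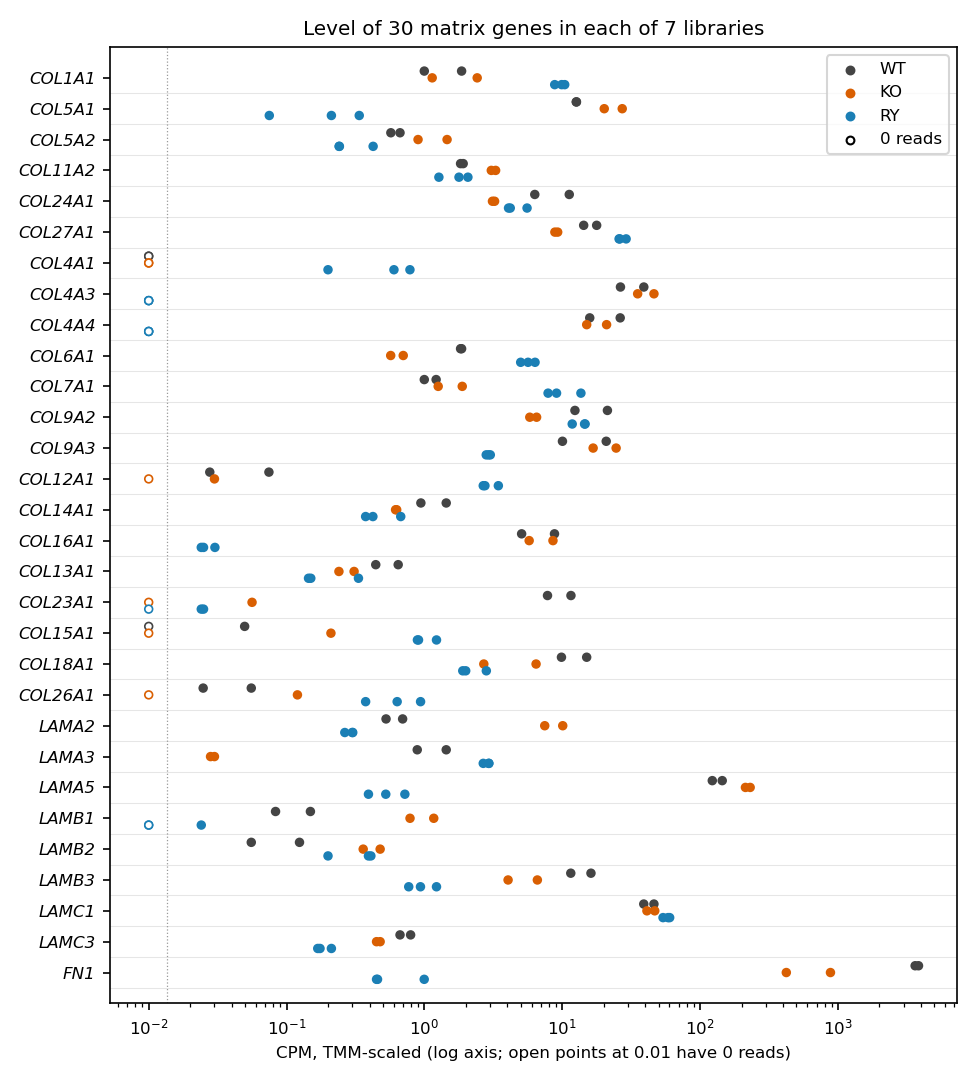
Level of the 30 genes that passed the filter, 1 row per gene, in TMM-scaled CPM on a log axis. Each point is a library (grey WT, orange KO, blue RY), open points at 0.01 stand for 0 reads, and FN1 runs from 3636 and 3847 CPM in WT to under 1 CPM in the libraries labelled RY.

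Of the 57 genes, FN1 took the largest share of the reads in WT and KO, and it was lower in KO than in WT and lower still in RY. FN1 (ENSG00000115414, chromosome 2, 215360440 to 215436172, minus strand, GRCh38) stood at 3636 and 3847 CPM in WT, at 423 and 884 in KO, and at 0.450, 0.457 and 0.997 in RY. The 3 groups did not overlap, and the KO libraries differed from each other by more than the WT libraries did. FN1 fell in KO from 3742 ± 149 CPM (SD, n = 2) to 653 ± 326 (SD, n = 2), 5.80-fold (log2 fold change -2.52, SE 0.33, adjusted p = 0.000914). Without KO replicate 2 the log2 fold change was -3.12 and without KO replicate 1 it was -2.08. In RY it fell 6138-fold against WT, with a counting interval of 4858 to 7873 at 95% (log2 fold change -12.56, SE 0.44, adjusted p = 3.84e-08), and 1058-fold against KO (log2 fold change -10.04, SE 0.41, adjusted p = 7.22e-08). Per kilobase of exon, FN1 ranked first of the 57 genes in WT (216 ± 8.59 CPM per kb) and in KO (37.7 ± 18.8). At the next rank, LAMA5 stood at 9.36 ± 1.10 CPM per kb in WT and 15.6 ± 0.868 in KO. In a bulk library, fewer cells with a transcript and less of it per cell cannot be told apart.

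Among laminins, 8 of 12 chains passed the filter. In KO against WT, 3 rose (LAMA2, LAMB1 and LAMB2) and 2 fell (LAMA3 and LAMB3). In RY against WT, 2 rose (LAMA3 and LAMB2) and 5 fell (LAMA2, LAMA5, LAMB1, LAMB3 and LAMC3). Of all genes tested, 3.3% rose and 7.64% fell in KO, and 23.7% rose and 25.4% fell in RY. LAMA5, the alpha chain most widely used in adult basement membranes, led the family in WT and KO, and LAMC1, the gamma chain shared by most laminins, led it in RY.

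LAMA5 (chromosome 20, 62307955 to 62367312, minus strand) stood at 145 and 123 CPM in WT, 231 and 214 in KO, and 0.525, 0.722 and 0.393 in RY. No group overlapped another. Its KO level was 1.67-fold that of WT (log2 fold change 0.73, SE 0.14, adjusted p = 0.00691), under the 2-fold threshold. In RY it fell 239-fold against WT (log2 fold change -7.90, SE 0.18, adjusted p = 3.42e-09) and 399-fold against KO (log2 fold change -8.63, SE 0.18, adjusted p = 2.36e-09). ADRM1, a proteasome subunit gene that overlaps LAMA5 on the other strand, averaged 119, 113 and 90.5 CPM in WT, KO and RY.

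LAMC1 stood at 39.1 and 46.3 CPM in WT, 46.9 and 41.2 in KO, and 60.2, 53.9 and 58.6 in RY. WT and KO overlapped, and the RY libraries were above both, though by less than 2-fold. The log2 fold change was 0.05 in KO (SE 0.12, adjusted p = 0.87) and 0.43 in RY against WT (SE 0.11, adjusted p = 0.00721). Because LAMC1 moved little and LAMA5 much, the ratio of LAMA5 to LAMC1 per kilobase was 2.18 and 1.56 in WT, 2.90 and 3.05 in KO, and 0.00395 to 0.00788 in RY.

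LAMA2 (chromosome 6, 128883141 to 129516569, plus strand), the alpha chain of muscle and nerve basement membranes, had the lowest adjusted p of the 3 members that rose in KO. It stood at 0.527 and 0.695 CPM in WT, 10.1 and 7.47 in KO, and 0.300, 0.265 and 0.302 in RY. Both KO libraries were far above all others. The rise in KO was 14.3-fold (log2 fold change 3.83, SE 0.29, adjusted p = 5.65e-05). In RY it fell by 1.08 on the log2 scale against WT (adjusted p = 0.0144), a call lost without WT replicate 2 (adjusted p = 0.0933), and 30.6-fold against KO (adjusted p = 3.92e-07).

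LAMB1 and LAMB2, the beta chains that pair with LAMA2, LAMA5 and LAMC1 in basement membranes, were scarce. LAMB1 stood at 0.0832 and 0.149 CPM in WT, 0.787 and 1.17 in KO, and 0, 0.0241 and 0 in RY. It rose 8.24-fold in KO (log2 fold change 3.02, SE 0.56, adjusted p = 0.0064; adjusted p = 0.0566 without KO replicate 2). The dihydrolipoamide dehydrogenase gene DLD overlaps it on the other strand at 150 to 199 CPM in group means. LAMB2 rose in KO as well, from a mean of 0.0898 to 0.419 CPM (log2 fold change 2.16, SE 0.62, adjusted p = 0.0463). That call was lost when WT replicate 1 (adjusted p = 0.148), WT replicate 2 (0.0587), KO replicate 1 (0.228), KO replicate 2 (0.104), RY replicate 2 (0.065) or RY replicate 3 (0.0767) was left out. In RY against WT, LAMB1 fell by 3.32 on the log2 scale (adjusted p = 0.0149; 0.0933 without WT replicate 2). LAMB2 rose by 1.83 (adjusted p = 0.0203), a call lost without WT replicate 1 (0.124), RY replicate 2 (0.0591) or RY replicate 3 (0.0521).

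LAMA3 and LAMB3 are chains of the laminin that fastens epithelia to their basement membrane. LAMA3 stood at 0.888 and 1.44 CPM in WT, 0.0281 and 0.0300 in KO, and 2.67, 2.94 and 2.93 in RY. Each KO library held 1 read. The fall in KO was 40.6-fold with a counting interval of 10.9 to 341 (log2 fold change -5.18, SE 0.56, adjusted p = 0.000319), and RY rose by 1.28 on the log2 scale against WT (SE 0.28, adjusted p = 0.00283). Without WT replicate 1 the RY value was 0.98 and was not called. LAMB3 stood at 11.5 and 16.2 CPM in WT, 6.60 and 4.05 in KO, and 1.22, 0.770 and 0.937 in RY. Its groups did not overlap. It fell 2.60-fold in KO (log2 fold change -1.38, SE 0.29, adjusted p = 0.0119; adjusted p = 0.0716 without KO replicate 2) and 14.3-fold in RY (log2 fold change -3.82, SE 0.29, adjusted p = 3.44e-06). LAMC3 fell in RY against WT by 1.97 on the log2 scale from a WT mean of 0.730 CPM.

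**Figure D2:**
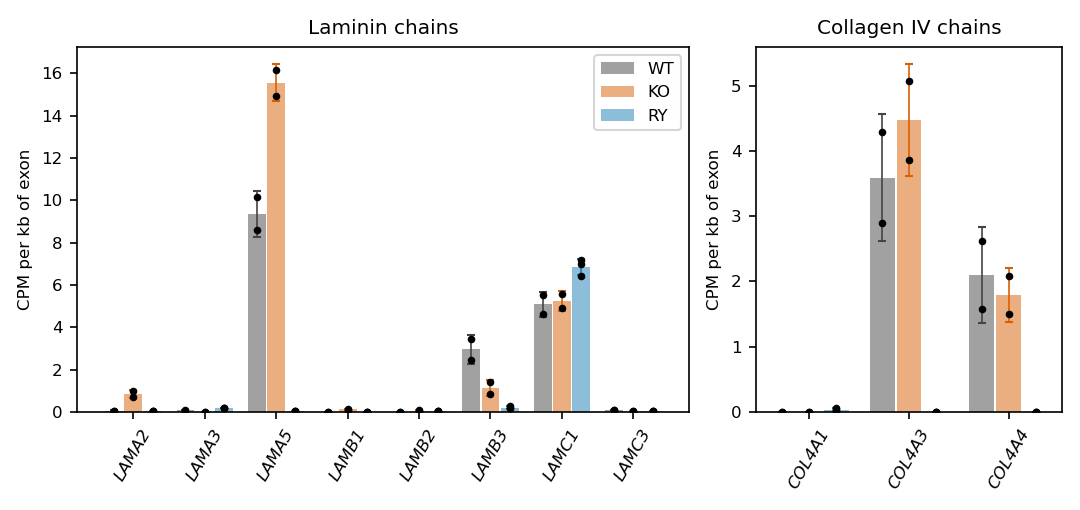
Level of the laminin chains (left) and collagen IV chains (right) that passed the filter, in TMM-scaled CPM per kilobase of exon. Bars are group means with SD (n = 2, 2 and 3) and points are libraries: LAMA5 leads the laminins in WT and KO, LAMC1 in RY, and COL4A3 and COL4A4 are at 0 in RY.

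Collagen IV of basement membranes is encoded by 6 genes in 3 head-to-head pairs, and of these only COL4A3, COL4A4 and COL4A1 passed the filter. COL4A3 and COL4A4 encode chains that assemble with the COL4A5 chain in the kidney glomerulus and the lung. COL4A3 (chromosome 2, 227164565 to 227314792, plus strand) stood at 26.5 and 39.1 CPM in WT, 46.3 and 35.3 in KO, and had 0 reads in each of the 3 libraries labelled RY. COL4A4 (chromosome 2, 227002711 to 227164453, minus strand) stood at 15.8 and 26.4 CPM in WT, 21.0 and 15.1 in KO, and also had 0 reads in RY. WT and KO overlapped for both genes, with log2 fold changes of 0.31 (SE 0.22, adjusted p = 0.437) and -0.23 (SE 0.28, adjusted p = 0.684).

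Against WT, RY was at least 1266-fold lower for COL4A3 (adjusted p = 6.83e-07) and at least 817-fold lower for COL4A4 (adjusted p = 2.3e-06), computed against the floor of 3 reads over the RY group. Against KO the bounds were 1566-fold (adjusted p = 4.64e-07) and 693-fold (adjusted p = 2.33e-06). Per kilobase, COL4A3 exceeded COL4A4 by 1.85 and 1.64 times in WT and by 2.44 and 2.59 times in KO. In both groups the replicate with more COL4A3 also had more COL4A4. The same libraries, WT replicate 2 and KO replicate 1, also had more COL9A3, COL16A1 and LAMB3, which lie on other chromosomes. LAMA5 was higher in WT replicate 1. The shared order is therefore not particular to the pair. COL4A5, the partner of COL4A3 and COL4A4, had 0 reads in WT and KO and 18 reads over RY, and COL4A6 had 0 reads throughout.

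The COL4A1 and COL4A2 pair, whose products form the collagen IV of nearly all basement membranes, has start sites 127 bases apart on chromosome 13. COL4A1 had 0 reads in WT and in KO and stood at 0.200, 0.602 and 0.786 CPM in RY, at least 13.1-fold higher than in WT (adjusted p = 0.00329). COL4A2 had 3 reads over the RY libraries and 0 elsewhere. The collagen IV chains with reads differed between RY and the other groups, though COL4A1 in RY was scarce beside COL4A3 in WT (0.529 ± 0.300 against 32.8 ± 8.93 CPM). Per kilobase, that is 0.0359 against 3.59 CPM.

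Of 11 fibrillar collagen genes, 6 passed the filter, and in WT and KO the abundant ones were not the chains of types I and III. In KO against WT, 1 was called (COL24A1, lower), and in RY against WT 2 were called (COL1A1 higher, COL5A1 lower). Of all genes tested, 10.9% and 49.1% were called in these comparisons. COL5A1, the chain that starts and limits the width of type I fibrils, stood at 12.7 CPM in both WT libraries, 27.3 and 20.2 CPM in KO, and 0.0750, 0.337 and 0.212 CPM in RY. KO lay above WT and RY below it without overlap. Its KO value missed the 2-fold threshold (log2 fold change 0.90, SE 0.25, adjusted p = 0.0423), while in RY it fell 60.5-fold against WT (log2 fold change -5.90, SE 0.33, adjusted p = 5.22e-07) and 114-fold against KO (adjusted p = 1.69e-07). Its partner chain COL5A2 averaged 0.619 CPM in WT and 1.18 in KO, and the ratio of COL5A1 to COL5A2 per kilobase was 12.4 to 14.9 over the 4 WT and KO libraries. In RY, COL5A2 averaged 0.302 CPM and the ratio was 0.118, 0.933 and 0.583.

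COL27A1, a collagen of cartilage and developing tissue, stood at 14.3 and 17.8 CPM in WT, 9.27 and 8.85 in KO, and 25.9, 29.1 and 26.2 in RY. The 3 groups did not overlap. Its log2 fold change was -0.83 in KO (SE 0.15, adjusted p = 0.00484) and 0.75 in RY (SE 0.13, adjusted p = 0.000727), each under the 2-fold threshold, and it was 2.99-fold higher in RY than in KO (log2 fold change 1.58, SE 0.14, adjusted p = 7.79e-06). COL24A1 fell in KO from 8.79 ± 3.48 to 3.18 ± 0.0795 CPM (log2 fold change -1.47, SE 0.30, adjusted p = 0.00958). That call was lost without WT replicate 2 (fold under 2), KO replicate 1 (adjusted p = 0.0538) or KO replicate 2 (adjusted p = 0.0508).

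COL1A1, the main chain of type I collagen, stood at 0.999 and 1.86 CPM in WT, 2.42 and 1.14 in KO, and 8.82, 9.92 and 10.4 in RY. It rose 6.66-fold in RY against WT (log2 fold change 2.75, SE 0.36, adjusted p = 0.00011), with RY above all other libraries. COL1A2, which encodes the other type I chain, had 1 read in WT, 0 in KO and 4 in RY, and COL3A1 had 0 reads. At 5.56%, the mean of the WT shares of the RY-rich genes above, the RY level would come to 37.8% of the WT level of COL1A1. Such a share would add to the WT level, and whether WT holds one was not tested.

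Collagens that decorate or link fibrils were represented by 5 of 10 genes. COL9A2 and COL9A3, chains of cartilage type IX collagen, diverged between the groups. COL9A2 stood at 12.4 and 21.3 CPM in WT, 6.52 and 5.82 in KO, and 11.8, 14.5 and 14.7 in RY. KO was below both other groups, and WT and RY overlapped. It fell 2.76-fold in KO (log2 fold change -1.45, SE 0.25, adjusted p = 0.00451) and was 2.20-fold higher in RY than in KO (adjusted p = 0.00187), a call lost without KO replicate 2 (log2 fold change 1.00).

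COL9A3 stood at 10.0 and 20.9 CPM in WT, 24.6 and 16.8 in KO, and 2.92, 3.01 and 2.81 in RY. WT and KO overlapped (log2 fold change 0.42, SE 0.31, adjusted p = 0.451), and RY lay below both, 5.39-fold lower than WT (log2 fold change -2.41, SE 0.30, adjusted p = 8.15e-05). The ratio of COL9A3 to COL9A2 per kilobase was 0.707 and 0.854 in WT, 3.29 and 2.51 in KO, and 0.167 to 0.216 in RY. The transcription factor gene TCFL5 overlaps COL9A3 on the other strand, at 18.4, 17 and 24 CPM in WT, KO and RY.

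COL16A1 stood at 5.08 and 8.79 CPM in WT, 8.57 and 5.76 in KO, and 0.0250, 0.0241 and 0.0302 in RY, where each library held 1 read. WT and KO overlapped. Its fall in RY was 269-fold against WT with a counting interval of 91.5 to 1308 (log2 fold change -7.88, SE 0.48, adjusted p = 8.46e-07). COL12A1, a fibril-associated collagen of tendon and stroma, ran the other way. It stood at 0.0277 and 0.0745 CPM in WT, 0 and 0.0300 in KO, and 2.67, 3.44 and 2.75 in RY, a 56.7-fold rise against WT (log2 fold change 5.73, SE 0.50, adjusted p = 8.55e-06).

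COL23A1, a transmembrane collagen shed from the cell surface, fell in both edited groups. It stood at 7.82 and 11.6 CPM in WT, 0.0562 and 0 in KO, and 0.0250, 0.0241 and 0 in RY. WT lay above every other library. The fall was 338-fold in KO with a counting interval of 93.2 to 2795 (log2 fold change -8.23, SE 0.59, adjusted p = 4.14e-05) and 562-fold in RY with an interval of 155 to 4649 (log2 fold change -8.87, SE 0.52, adjusted p = 6.73e-07). COL13A1, another transmembrane collagen, averaged 0.545 CPM in WT, 0.275 in KO and 0.209 in RY and was called only in RY against WT (adjusted p = 0.0233), a call lost without WT replicate 2 (0.151), RY replicate 1 (0.0784) or RY replicate 2 (0.0693).

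COL6A1, a chain of the beaded filaments around cells, stood at 1.83 and 1.86 CPM in WT, 0.703 and 0.570 in KO, and 5.00, 6.35 and 5.65 in RY. The groups did not overlap. It fell 2.89-fold in KO (log2 fold change -1.53, SE 0.27, adjusted p = 0.00505) and rose 3.07-fold in RY against WT (log2 fold change 1.62, SE 0.22, adjusted p = 0.000153). It was 8.89-fold higher in RY than in KO (adjusted p = 4.52e-06). Its obligate partners did not pass the filter: COL6A2 had 7, 2 and 0 reads in WT, KO and RY, and COL6A3 had 6, 16 and 6.

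COL7A1, the collagen of the fibrils that anchor skin epithelium, stood at 0.999 and 1.22 CPM in WT, 1.88 and 1.26 in KO, and 7.90, 13.7 and 9.10 in RY. It rose 9.28-fold in RY (log2 fold change 3.20, SE 0.32, adjusted p = 2.24e-05). COL18A1, the basement membrane collagen from which endostatin is cut, averaged 12.5 ± 3.66 CPM in WT, 4.58 ± 2.66 in KO and 2.24 ± 0.504 in RY. It fell in KO (log2 fold change -1.44, SE 0.39, adjusted p = 0.0366) and in RY (log2 fold change -2.47, SE 0.36, adjusted p = 0.000227). The KO call was lost without WT replicate 2 (adjusted p = 0.0557), KO replicate 2 (0.135) or any RY library (0.0644 to 0.068). The folate carrier gene SLC19A1 overlaps COL18A1 on the other strand at 114, 144 and 55.9 CPM in WT, KO and RY.

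The remaining collagens called in RY against WT were the scarce COL15A1 and COL26A1, which rose, and COL14A1, which fell, with group means of 1.19 CPM or less in both groups. The call for COL14A1 was lost without WT replicate 2 (adjusted p = 0.0893). For COL7A1, COL12A1, COL15A1 and COL26A1, 5.56% of the RY level would come to 51.3%, 322%, 226% and 90% of the WT level. The values for COL12A1 and COL15A1 exceed the whole WT level, so they cannot be read as parts of it. The corresponding share was 17.1% for COL6A1, 13.6% for LAMA3 and 0.000944% for FN1.

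**Figure D3:**
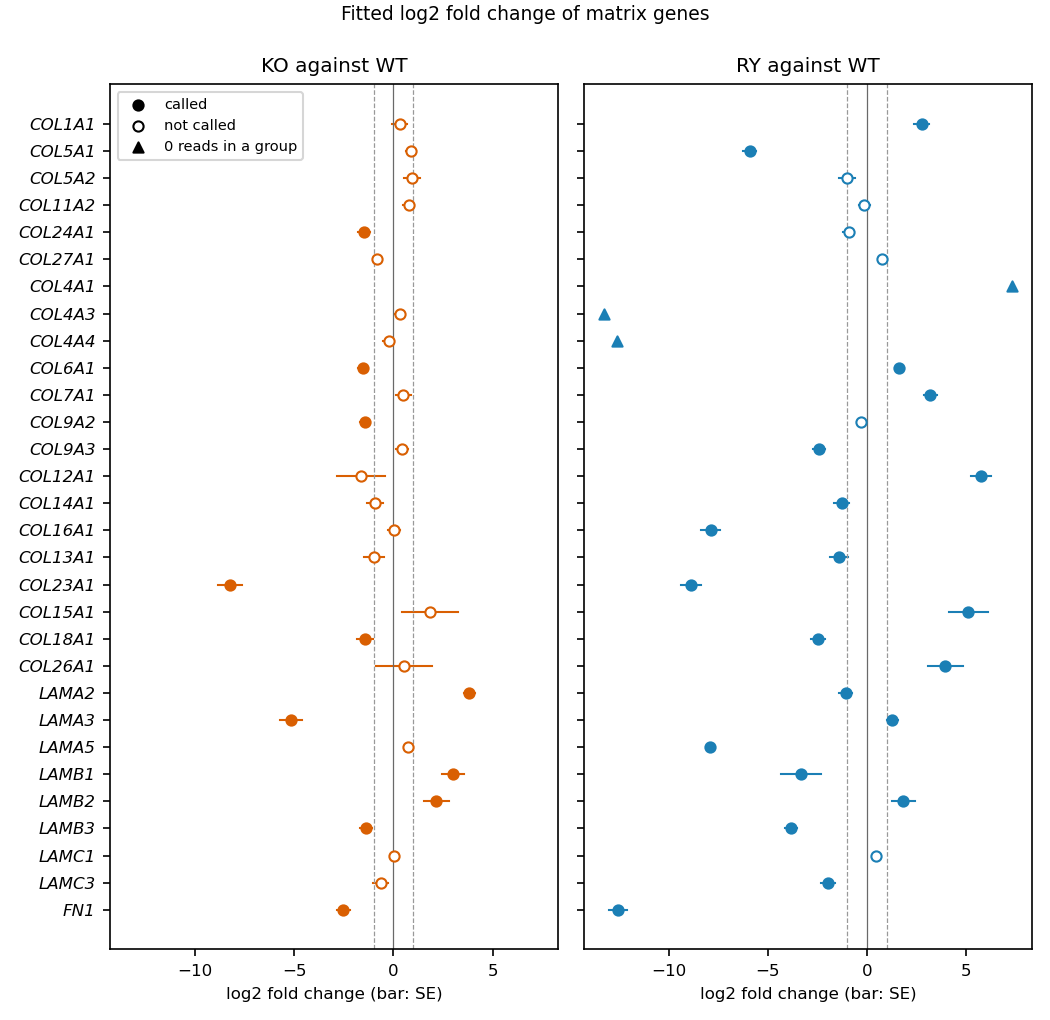
Fitted log2 fold change of the 30 genes in KO against WT (left) and in RY against WT (right), with SE as bars. COL4A1, with 0 reads in both WT and KO, has no point on the left. Filled points were called, open points were not, triangles have 0 reads in a whole group and carry no bound, and dashed lines mark 2-fold: 3 genes are higher and 8 lower on the left, 9 and 15 on the right.

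Run without the RY libraries, KO against WT tested 26 of the genes and called 8, of which 2 were higher and 6 lower, beside 8.79% of the 16288 genes of that fit. COL6A1 (adjusted p = 0.0512), COL18A1 (0.118) and LAMB2 (0.0993) were no longer called, with the same log2 fold changes. The authors' deposited table of KO against WT listed 2336 genes. It held 10 of the 57 genes, 2 higher and 8 lower, and all 10 were called here. LAMB2 was called here alone. The authors' deposited table of RY against WT listed 9877 genes. It held 28 of the 57, including the 24 called here and in addition COL2A1, COL4A5, COL5A2 and COL6A2.

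Genes that process, bind, cleave or control the matrix were counted in 5 lists. Of 31 genes of collagen processing that were tested, 1 rose and 1 fell in KO, with a median log2 fold change of 0.01. PXDN, the peroxidase that cross-links collagen IV in the basement membrane, rose from 48.4 ± 5.32 to 265 ± 51.9 CPM (log2 fold change 2.45, adjusted p = 3.29e-05). P3H3, a prolyl hydroxylase family member, fell from 6.29 to 0.608 CPM (log2 fold change -3.36, adjusted p = 0.000155). In RY against WT, 7 of the list rose and 13 fell, with a median of -0.74. PXDN had 1 read over the 3 libraries labelled RY (log2 fold change -11.97, adjusted p = 9.49e-09). ADAMTS2, the protease that trims the amino end of procollagen, averaged 27.8 CPM in WT and 23.0 in KO and had 1 read in RY (adjusted p = 9.93e-09 against WT). PCOLCE2, an enhancer of the protease at the other end, fell from 36.8 CPM in KO to 3.61 in RY (log2 fold change -3.36, adjusted p = 7.17e-08). PPIB, the cyclophilin that helps fold collagen and other secreted proteins, fell from 1832 to 508 CPM (log2 fold change -1.85, adjusted p = 1.81e-07). The collagen chaperone gene SERPINH1 stood at 54.1 and 58.5 CPM in WT, 53.2 and 48.8 in KO and 25.8 to 28.2 in RY, named here after its values were seen.

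Of 27 matrix receptors tested, 2 rose and 7 fell in KO (median -0.10), and 12 rose and 8 fell in RY against WT (median 0.97). MRC2, which takes up collagen fragments, stood at 5.52 and 9.12 CPM in WT, 0.197 and 0.480 in KO, and 191 to 201 in RY. CD36 and SDC4, a thrombospondin and collagen receptor and a syndecan, were the others named by lowest adjusted p in KO, with log2 fold changes of -4.92 (adjusted p = 8.4e-05) and -4.63 (adjusted p = 0.000147). The 2 that rose were ITGA9, at 0 reads in WT, and BCAM, a receptor for the LAMA5 chain. BCAM stood at 0.999 and 1.56 CPM in WT, 4.16 and 2.79 in KO (log2 fold change 1.43, adjusted p = 0.0465) and had 0 reads in RY. Among the 7 that fell, the RY share (5.56% of the RY level as a percentage of the WT level) was at least 50% for 4 genes (MRC2 150%, CD44 105%, SDC4 63.5% and OSCAR 58.1%). MRC2 meets the rule by which the 210 RY-rich genes were chosen, and so entered the medians behind this 5.56%. The share of such a gene, here and in the lists below, is not independent of those medians. Shares above the whole WT level, such as those of MRC2 and CD44, are scaled values and not parts of it. SDC1, which encodes syndecan-1, fell in RY from 201 ± 61.7 to 0.0327 ± 0.0283 CPM (log2 fold change -12.36, adjusted p = 9.49e-09). ITGB5, an integrin beta chain that pairs with the alpha V chain, fell from 140 to 0.438 CPM (log2 fold change -8.36, adjusted p = 5.36e-08). ITGB1, the integrin beta chain shared by the receptors of collagen, laminin and fibronectin, averaged 48.5 CPM in WT and rose to 240 CPM in RY (log2 fold change 2.31, adjusted p = 2.24e-07).

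Of 18 basement membrane and matrix partners tested, 3 rose (TGFBI, HSPG2 and FBN1) and 5 fell in KO (median -0.33), and 8 rose and 6 fell in RY against WT (median 0.71). HSPG2, which encodes the basement membrane proteoglycan perlecan, stood at 4.61 and 3.53 CPM in WT and 10.0 and 7.44 in KO (log2 fold change 1.10, adjusted p = 0.0103). THBS2, a matricellular thrombospondin, stood at 3.66 and 4.62 CPM in WT and 0.0562 and 0.0300 in KO (log2 fold change -6.47, adjusted p = 3.5e-05). NTN1, a netrin related to laminins, had 0 reads in KO, at least 82.2-fold below WT (adjusted p = 4.84e-05). SPARC, a collagen-binding glycoprotein, fell in KO too (log2 fold change -5.52, adjusted p = 0.000734), with an RY share of 141%. In RY against WT, ECM1 rose from 2.38 to 40.9 CPM (adjusted p = 2.93e-07) and FBN1, which encodes fibrillin of microfibrils, from 2.95 to 18.5 CPM (adjusted p = 1.96e-06). MATN2, a matrilin, averaged 19.9 CPM in WT and had 0 reads in RY, at least 766-fold lower (adjusted p = 3.34e-07). The nidogens, which link laminin to collagen IV, were at 0 reads (NID1) or at most 0.217 CPM (NID2).

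Of 23 matrix proteases and inhibitors tested, 3 rose (CTSK and HPSE among them) and 4 fell in KO (median -0.58), and 11 rose and 7 fell in RY against WT (median 0.73). The collagenase gene MMP13 stood at 21.0 and 19.1 CPM in WT, 0.731 and 0.540 in KO, and 0, 0 and 0.121 in RY. It fell in KO by 4.97 on the log2 scale (adjusted p = 9.45e-05) and in RY by 9.02 (adjusted p = 5.19e-07). The RY shares of the other 3 that fell in KO were 124% for RECK, 60.2% for PLAU and 117% for MMP7, against 0.0112% for MMP13. PLAU, the urokinase gene, rose in RY from 1.62 to 17.5 CPM (adjusted p = 9.53e-07), RECK from 1.93 to 43.2 CPM (adjusted p = 9.68e-07) and TIMP1, a metalloprotease inhibitor, from 27.4 to 108 CPM (adjusted p = 1.92e-06).

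Of 26 regulators of matrix genes tested, 0 rose and 6 fell in KO (median -0.18), and 9 rose and 8 fell in RY against WT (median 0.28). RUNX2, a transcription factor of bone cells, fell in KO from 6.77 and 15.2 to 0.0281 and 0.0600 CPM (log2 fold change -7.87, adjusted p = 6.62e-05), with an RY share of 19.7%. TGFBR2, a receptor chain for TGF-beta, fell by 1.29 (adjusted p = 0.000822), and ZEB2 fell by 6.74 (adjusted p = 0.000239) with an RY share of 208%. TEAD1, the DNA-binding partner of YAP and TAZ, stood at 132 and 150 CPM in WT, 195 and 154 in KO, and had 0 reads in RY. ZEB1 fell in RY from 24.6 to 0.0164 CPM (adjusted p = 8.09e-09), whereas ZEB2 rose from 3.44 to 129 CPM (adjusted p = 5.43e-07) and TGFBR1 from 12.9 to 79.0 CPM (adjusted p = 1.52e-07). Beside these counts stand those of all genes given above, 3.3% higher and 7.64% lower in KO and 23.7% and 25.4% in RY.

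**Figure D4:**
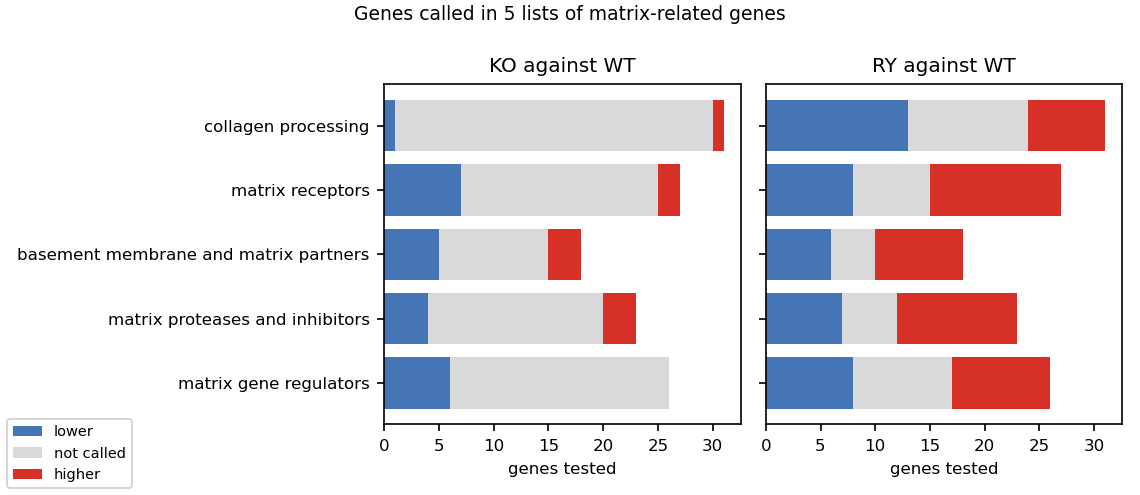
Number of genes tested in each of 5 lists of matrix-related genes, split into lower (blue), not called (grey) and higher (red), for KO against WT (left) and RY against WT (right). The largest list, collagen processing, had 1 gene in each direction in KO against WT and 7 higher with 13 lower in RY against WT.

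Markers of cells that make much matrix were counted as well, and their part in the results was not tested. Single genes led most of the sums, and members of a list differed in direction. Of 14 fibroblast and stromal markers, 2, 2 and 3 reached 1 CPM in WT, KO and RY. Their sum was 371 to 423 CPM in WT, 274 to 320 in KO and 95.4 to 103 in RY, of which S100A4 made up most (means of 393, 294 and 91.4 CPM). ACTA2, the actin of smooth muscle and myofibroblasts, went the other way in RY: it averaged 0.221 CPM in WT, had 0 reads in KO and averaged 3.89 CPM in RY (log2 fold change 4.11 against WT, adjusted p = 1.28e-05). PDGFRA, DCN and PDPN were at 0 reads in WT and KO. Of 12 endothelial markers, EGFL7 made up most of the 97.0 to 109 CPM in WT and the 109 to 132 CPM in KO, while CDH5, KDR and CLDN5 had 0 reads in every library, and RY held 3.45 to 4.40 CPM. ESAM rose in RY from 0.947 to 1.99 CPM (adjusted p = 0.00662) and PLVAP from 0.0139 to 0.515 CPM (adjusted p = 0.0019), while PECAM1 averaged 0.551 CPM in WT and 1.01 in RY and was not called. ESAM was highest in KO, at 4.38 CPM. VWF had 0 reads in KO and fell in RY against WT from 0.521 to 0.201 CPM (log2 fold change -1.41, adjusted p = 0.0362). Of 12 epithelial markers, 9, 8 and 2 reached 1 CPM, summing to 231 to 252, 202 to 221 and 17.1 to 19.8 CPM, led in WT and KO by KRT18. CLDN4 and KRT14 made up most of the RY sum. KRT14 averaged 1.20 CPM in WT, had 0 reads in KO and rose to 7.32 CPM in RY (log2 fold change 2.60 against WT, adjusted p = 4.37e-05), and CLDN4 averaged 7.78, 8.14 and 10.5 CPM in WT, KO and RY. The 11 early lymphoid markers summed to 5.02 to 6.31 CPM in WT, 2.94 to 4.36 in KO and 25.8 to 26.2 in RY. RAG2 made up most of the RY sum, at 20.3 CPM. In RY against WT, RAG2 and DNTT were called higher and RAG1 was not called (log2 fold change -0.04). CD7 (log2 fold change -4.10, adjusted p = 0.000571) and TCF7 (log2 fold change -4.48, adjusted p = 0.000281) were called lower.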

How the data were processed

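Raw read counts per Ensembl gene were the authors' deposited values and had not been normalized. GRCh38 and the tools STAR 2.7.4, HTSeq 0.9.1, FastQC and edgeR 1.34.1 are listed in the submitters' processing notes. The label protocols give a stranded library kit, but strand setting and annotation are not given in the sources used here. Counts of genes overlapping on opposite strands are therefore uncertain. The authors' deposited tables of comparisons hold log2 fold changes and adjusted p-values, and served only for a count of listed genes.

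Symbols came from the gene name table, and gene positions and exon lengths from GENCODE release 29. Counts were tested by quasi-likelihood in edgeR 4.0.16 (R 4.3.3), with TMM scaling (factors 0.932 to 1.09), filterByExpr at a minimum count of 10, a term per group, all 7 libraries and no covariates. Adjusted p-values are Benjamini-Hochberg over 18281 genes. SE is the absolute log2 fold change divided by the square root of F. Folds are ratios of TMM-scaled reads. With 0 reads in the lower group, the fold is computed against 3 reads over the group and is a bound. With 1 to 3 reads it has an exact interval at 95%, and floors and intervals cover counting error only. Levels are mean ± SD.

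DESeq2 1.42.0, other scalings and filters, left-out libraries, a replicate block and 2-group fits were alternatives, and the script was tested on simulated data. Members and lists were chosen with earlier results of these data known. Full values were given for FN1, the 10 most abundant members, tested members of the head-to-head pairs and the 6 lowest adjusted p per comparison, and up to 3 genes per list by adjusted p. Other genes named with values were chosen after these were seen, and some genes are not reported here. No library repeated another: the chi-square per gene between replicates was at least 7.88. Replicates may be technical, and p-values then measure only the spread between these libraries.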

Additional observations from a re-analysis of the deposited data

How the results depend on the processing

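Over the 30 genes, the 3 comparisons and the alternatives run, 1311 values were recomputed: 1247 stayed on their side of the threshold, 46 lost their call and 18 gained one. Of 849 values of called members 0 changed sign, and of 462 values of members not called 15 did. Leaving out libraries in turn gave 7 to 10 members called in KO against WT (2 to 3 higher, 5 to 8 lower), 20 to 26 in RY against WT (7 to 10 higher, 11 to 16 lower) and 21 to 24 in RY against KO (9 to 11 higher, 11 to 14 lower). Without RY replicates 1, 2 and 3 in turn, 1828 of 18040, 1823 of 17910 and 1822 of 18096 genes were called in KO against WT. In RY against WT these counts were 8649, 8569 and 8638, and in RY against KO 8823, 8787 and 8791. Leaving out a WT or KO library leaves 1 in that group, and the counts over all genes moved there too. The member ranges are therefore not read as a result about the members. A filter of at least 1 CPM in 2 libraries, which tests fewer genes, gave 1 member higher in KO against WT and 5 higher in RY against WT. It called 1747 and 6984 of all 14902 genes in these comparisons, counting both directions, so shares cannot be compared. With no fold minimum, 5 were higher in KO. There 2920 of all 18281 genes were called in either direction, which is likewise not a matching share. Leaving out COL7A1, COL12A1, COL15A1 and COL26A1 leaves 5 higher in RY against WT by construction, since all 4 were called higher. With DESeq2 the calls were 10, 23 and 23, beside 2019, 8708 and 8911 of all 18281 genes. Scaling by library size alone moved the median of all genes in RY against WT from -0.026 to 0.165 and in RY against KO from -0.031 to 0.114, and neither LAMA2 in RY against WT (-0.89) nor COL18A1 in RY against KO (-0.88) was called there. With the replicate number as a block, 9 members were called in KO against WT, 20 in RY against WT and 21 in RY against KO, beside 1564, 8440 and 8598 of all 18281 genes. Deviations of same-numbered WT and KO libraries correlated at -0.3, so the numbers are not shown to pair the samples. With the KO numbers crossed, an alternative chosen after seeing the data, the block gave 11 calls. The count over all genes of that fit is not given here, so the 11 are not read as a result. The causes were not tested. Depth limits the members with 1 to 3 reads in a group, such as COL23A1 in KO and COL16A1 in RY, whose folds span more than a factor of 10 between their bounds.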
